A study of Ovis aries with 18 samples.

Results

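OSBPL8 encodes ORP8, a member of the oxysterol-binding protein family, and was represented in the allele count table by 56 of 24355 SNPs, as 1 of 5810 genes. The 56 SNPs were every row of the table assigned to OSBPL8, ordered by position and separated by their predicted consequence. The gene was chosen for how many of its SNPs had passed the authors' read filter, a value that comes from the same reads. The number of SNPs is therefore given as a description: only HSPG2 with 61 SNPs and ALDH5A1 with 60 had more, and PLEC came next with 49. The filter asked that both alleles be covered by 10 or more reads in 5 or more animals. The member nearest to that limit was C112164483T, in which the fifth highest count of the less frequent allele was 10 reads, the next member had 11 and the deepest had 56. SNPs of the gene below the limit were not analysed here. SNPs are named by the reference base, the position on the Oar v3.1 assembly and the alternate base.

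ORP8 is anchored in the endoplasmic reticulum and, with its relative ORP5, works where that membrane touches the plasma membrane. There the pair carries phosphatidylserine outward in exchange for the phosphoinositide PI4P, and ORP8 has also been placed at contacts with mitochondria and lipid droplets. Allelic imbalance (AI) is the unequal abundance of transcripts from the maternal and the paternal copy of a gene within the same cells, and it is read from the share of reads that carry each allele at a heterozygous SNP. The 3′ UTR, the untranslated end of an mRNA, is where many regulatory proteins and microRNAs bind, and its SNPs do not alter the protein.

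The RNA came from perirenal adipose tissue (PRAT), a depot with many brown fat cells around the fetal kidney. It was taken from 18 wild type, pure bred merino singleton fetuses, 16 female and 2 male, at about day 132 of a pregnancy that lasts 150 days, from unrelated ewes on a maintenance diet and 1 common sire. There was 1 group, without treatment, and each fetus was 1 sample. Among the brown fat markers, UCP1, CIDEA, PPARGC1A and DIO2 were in the table (4 of 7), with UCP1 at a mean of 2459.7 reads per SNP for every 1000000 reads at SNPs, and 4 of 8 fat cell markers were found. Of other cell types, 3 of 4 endothelial markers (VWF at 59.7, CDH5 at 74.8 and KDR at 66.4 on that scale) and 2 of 4 immune markers (CD163 at 6.07 and CD14 at 7.35) were in the table, whereas 0 of 5 kidney, 0 of 4 skeletal muscle, 0 of 3 red blood cell and 1 of 5 adrenal markers were present, and STAR, the adrenal marker found, was at 11.4. A gene without a qualifying SNP is not in the table, so absence from it does not show that a gene was silent. Reads at SNPs totalled between 2970824 and 5334585 per animal. RS929, labelled female, was called heterozygous at 29.1% of the 244 X-linked SNPs, within the 25.4% to 32.4% of the males and below the 54.1% of the next female. Values of the SNPs named below at which RS929 was heterozygous, and of the share over the whole gene, are therefore also given without it.

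The OSBPL8 SNPs lay on chromosome 3 between 112160990 and 112240195. Of the 56, 50 were 3′ UTR variants, 5 were synonymous and 1 was a missense variant. OSBPL8 had more 3′ UTR SNPs than any other gene of the table, followed by GLG1 with 42, and held 1.44% of the 3470 3′ UTR SNPs of the series. They were packed into 3742 bp, from 112160990 to 112164732, with a median distance of 49 bp between neighbours, and 39 of the 49 distances were no longer than a read of 100 bp. Many of these SNPs therefore shared reads, as well as heterozygous animals, so they are not independent measurements of AI. The 6 coding SNPs began at 112164778 and reached 112240195. Of the substitutions, 35 of 56 (62.5%) were transitions, against 78.1% of all SNPs in the table.

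The animals fell into few genotype combinations. The 56 SNPs showed 18 patterns of heterozygous animals, of which 11 belonged to a single SNP. The largest pattern held 24 SNPs, from A112161050T to C112164824T, and included the missense SNP T112164778C. At all 24, the same 6 animals were heterozygous (RS902, RS917, RS920, RS930, RS933 and RS953), RS937 was homozygous for one set of alleles and the other 11 animals were homozygous for the opposite set. The set carried by RS937 is called the RS937 haplotype below. The alleles of both sets are shown because the strongest AI of the gene followed them. Each letter is the allele at 1 of the 24 SNPs in rising order of position, not contiguous sequence, and capitals mark the alternate allele.
RS937 haplotype: acCAgtgcAactTtTCaggccatT
other haplotype: TTacACATcGACcCctGCTTTCCc
The RS937 haplotype carried the alternate allele at 7 of the 24 SNPs and the other haplotype at 17. A second pattern joined 9 SNPs heterozygous in RS905, RS910, RS930, RS940 and RS969, and another joined 4 SNPs heterozygous in 13 animals. The number of heterozygous OSBPL8 SNPs per animal ranged from 4 in RS937 to 42 in RS902, RS917, RS933 and RS953, with a median of 25.

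**Figure D1:**
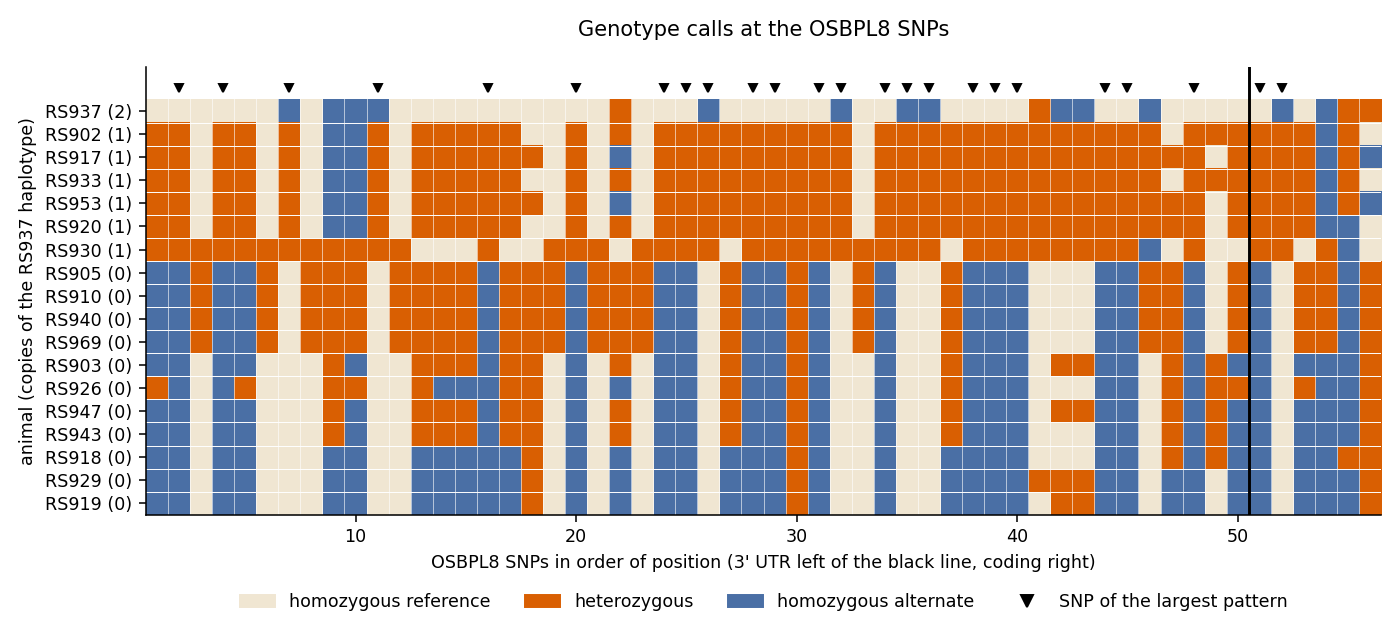
Genotype calls of the 18 animals (rows, with the copies of the RS937 haplotype in parentheses) at the 56 OSBPL8 SNPs (columns, in order of position). Black triangles mark the 24 SNPs of the largest pattern, at which the same 6 animals were heterozygous, RS937 was homozygous for one set of alleles and 11 animals for the other.

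AI was tested at each SNP with the study's Poisson likelihood ratio test on reads summed over heterozygous animals. At unadjusted P below 0.05, 15 of the 56 SNPs (26.8%) showed AI, against 45% of all SNPs tested in the table. The reference allele was higher at 14 of the 15 and the alternate allele at 1. The 14 include G112164154C and C112164155A. In the 6 animals with 1 copy of the RS937 haplotype alone, their shares were 0.418 and 0.404. Over all SNPs of the table the corresponding shares were 33.8% with the reference allele higher and 11.1% with the alternate allele higher. Among the 3′ UTR SNPs, 14 of 50 showed AI (28%), against 50.1% of the 3′ UTR SNPs of all genes. With the null set to 0.519, the median reference share over all SNPs, in place of 0.5, 14 OSBPL8 SNPs showed AI, 7 above and 7 below that share, and 8 of them were among the first 15. After Benjamini-Hochberg adjustment over all SNPs 9 remained, where 38% of all SNPs did. When the error was widened by the spread between animals (moderated quasi-binomial F test, Benjamini-Hochberg adjusted) 3 remained, where 24.5% of all SNPs did. At unadjusted P, after adjustment and in the F test, the share of OSBPL8 SNPs called was below that of the table, which is a description, since these SNPs shared reads and animals.

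**Figure D2:**
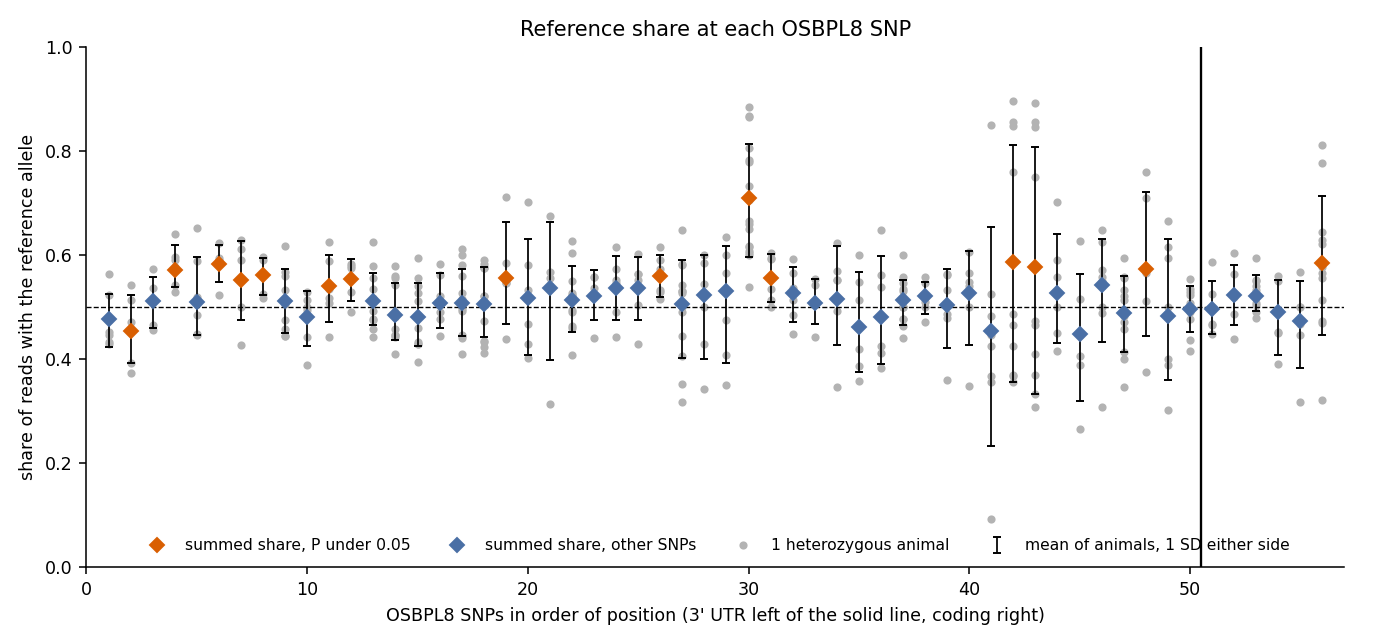
Share of reads with the reference allele at the 56 OSBPL8 SNPs in order of position. Grey points are single heterozygous animals, bars span 1 SD either side of their mean, and diamonds are the shares of summed reads, orange where P was below 0.05. Most diamonds sit near 0.5, whereas T112163132G stands at 0.709 and the 3 adjoining SNPs at 112164153 to 112164155 have the widest spread between animals.

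The reference share at the 56 SNPs ranged from 0.449 to 0.709 with a median of 0.517, close to the median of 0.519 over all SNPs. The heterozygous calls rested on 18 to 146 reads each, with a median of 66. The spread between animals was near counting error at most SNPs: the dispersion, which is 1 under counting error alone, had a median of 1.26 in OSBPL8 and of 1.41 over all SNPs. The shares of animals differed beyond counting error at 7 of the 56 SNPs (Benjamini-Hochberg adjusted chi-square test), against 15.4% of all SNPs.

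The largest AI in the gene was at T112163132G in the 3′ UTR, with 642 reference and 263 alternate reads in 17 heterozygous animals, a reference share of 0.709 (P = 1.74e-37, Benjamini-Hochberg adjusted P = 3.22e-36, and 2.59e-07 in the moderated quasi-binomial F test). It was the only OSBPL8 SNP called heterozygous in 15 or more animals, as were 9.89% of all SNPs. The reference allele was higher in all 17 animals. The share nevertheless differed between animals, from 0.538 in RS969 (35 reference and 30 alternate reads) to 0.885 in RS953 (54 and 7), with a dispersion of 3.12. The genotypes were called from these same reads. Whether each of the 17 animals was truly heterozygous here was not tested, so AI at this SNP means unequal reads only.

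The share at T112163132G followed the copies of the RS937 haplotype, which are read from other SNPs. This relation was noticed in the data and is given without a test. RS937, with 2 copies, had 53 reference and 0 alternate reads, and a count of 0 allows up to 3. The 6 animals with 1 copy had 26 and 4 reads in RS902, 54 and 13 in RS917, 54 and 15 in RS920, 59 and 9 in RS930, 39 and 11 in RS933, and 54 and 7 in RS953. Their mean share was 0.831 ± 0.0472 (SD, n = 6), and each lay between 0.780 and 0.885. In the 11 animals with 0 copies the lowest share was 0.538, the median 0.618 and the highest 0.733, with a mean of 0.637 ± 0.0541 (SD, n = 11). The highest of these was RS929, without which the mean was 0.627 ± 0.0460 (SD, n = 10) and the highest share 0.706. The shares of the 1-copy and 0-copy animals did not overlap. At SNPs heterozygous in the same 17 animals, the shares of these same 6 and 11 animals were separated at 1 of 1331 SNPs (0.0751%), which was T112163132G itself. In summed reads the alternate allele made up 36.4% with 0 copies, 17.1% with 1 copy and 0% with 2 copies.

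The SNPs on either side, C112163098A and T112163202C, belong to the largest pattern, so they were heterozygous in the 6 animals with 1 copy and homozygous in the rest, and they offer no heterozygous 0-copy animals for the same comparison. Their summed reference shares were 0.531 and 0.556. At T112163202C the 6 animals ranged from 0.5 to 0.604, all below the lowest of their shares at T112163132G, 70 bp away. In the 11 animals with 0 copies, the same neighbour had 1 or 0 reads of the reference allele. Among the other SNPs heterozygous in at least 3 animals of each kind, the groups did not overlap at G112164154C and C112164155A alone. These adjoining bases shared reads and heterozygous animals, so they are not independent. Their alleles largely went with the copies (next paragraph), so a separation there follows from the grouping and is no further observation of AI. Both bases compared 6 animals with 4, and how often such groups separate over all SNPs was not determined.

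A112164153G, G112164154C and C112164155A are neighbouring bases of the 3′ UTR, and their alleles largely went with the haplotype. Whatever the call, the summed reference share at G112164154C was 0.904 with 0 copies, 0.418 with 1 copy and 0.0476 with 2 copies. At G112164154C the summed reads were 247 reference and 174 alternate in 10 heterozygous animals, a share of 0.587 (P = 3.61e-04, Benjamini-Hochberg adjusted P = 0.00152, and 0.276 in the moderated quasi-binomial F test). This sum joined animals that lay far apart. The 6 animals with 1 copy of the RS937 haplotype had more alternate reads, 105 to 146, and a mean share of 0.412 ± 0.0557 (SD, n = 6). The reads were 14 and 24 in RS902, 17 and 29 in RS917, 19 and 20 in RS920, 17 and 23 in RS930, 10 and 18 in RS933, and 28 and 32 in RS953. The 4 heterozygous animals with 0 copies had 45 and 8 in RS903, 36 and 6 in RS919, 35 and 11 in RS929, and 26 and 3 in RS947. Their mean share was 0.841 ± 0.0572 (SD, n = 4), and without RS929 the other 3 lay between 0.849 and 0.897. The summed share over all heterozygous animals but RS929 was 0.565 (P = 0.0113). The dispersion between animals was 8.55 at this SNP, against a median of 1.26 in the gene.

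C112164155A behaved alike, with 237 reference and 174 alternate reads (share 0.577, P = 0.00185, Benjamini-Hochberg adjusted P = 0.00659, and 0.358 in the moderated quasi-binomial F test). Its share was 0.394 ± 0.0687 (SD, n = 6) with 1 copy and 0.837 ± 0.0610 (SD, n = 4) with 0 copies, and its dispersion was 8.83, the highest of the gene. Without RS929 the 0-copy mean was 0.865 ± 0.0244 (SD, n = 3). The summed share was then 0.556 (P = 0.0322). A112164153G had a share of 0.455 (P = 0.0939). There RS937, homozygous at every SNP of the largest pattern, was called heterozygous with 4 reference and 39 alternate reads, and RS929 was called heterozygous with 40 and 7. Without RS929 the summed reads were 116 reference and 180 alternate, a share of 0.392 (P = 1.88e-04), but that sum still included RS937. The 6 animals with 1 copy alone had 112 and 141, a share of 0.443 that is given without a test.

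The genotype calls at these 3 bases divided animals with similar reads. At G112164154C the 7 animals with 0 copies that were called homozygous reference still had 18 alternate reads beside 291 reference reads, or 5.83%, against 16.5% in the 4 called heterozygous. RS910, for example, was called homozygous with 54 reference and 6 alternate reads, and RS947 heterozygous with 26 and 3. RS937 had 2 reference and 40 alternate reads and was called homozygous alternate. Reads of a genotype's absent allele were otherwise few in OSBPL8. Over all 56 SNPs there were 115, and 34 SNPs had none.

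**Figure D3:**
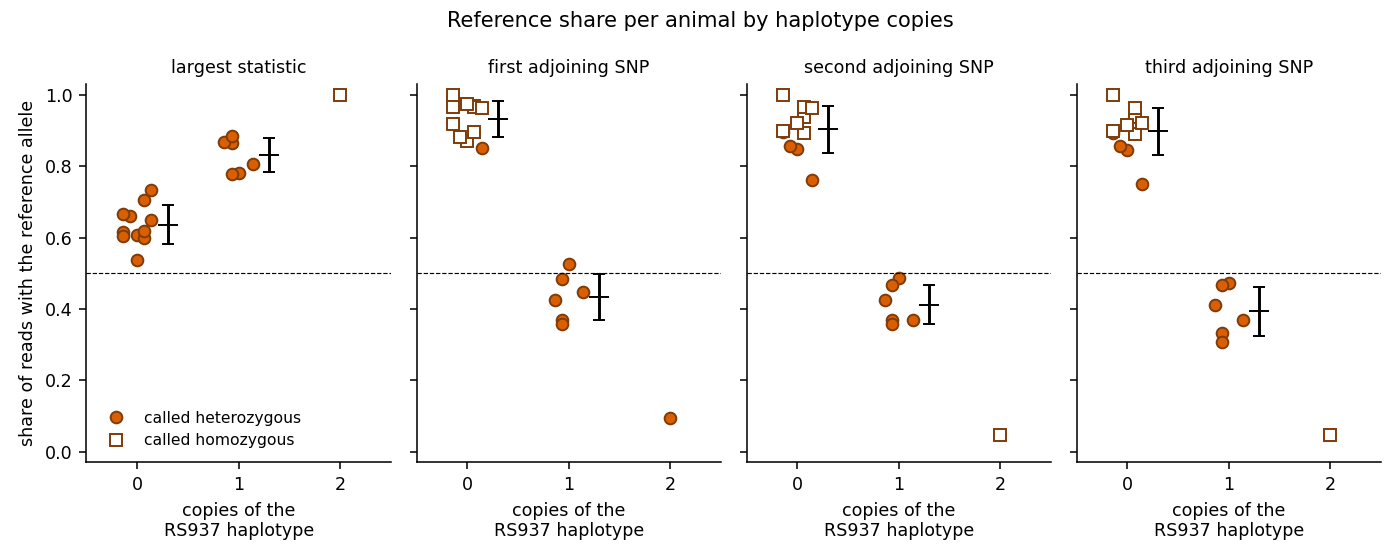
Share of reads with the reference allele in each of the 18 animals, grouped by copies of the RS937 haplotype, at T112163132G (left) and at the adjoining A112164153G, G112164154C and C112164155A. Filled points were called heterozygous, open squares homozygous, and the bars are the mean and 1 SD of the group. At T112163132G the share was 0.637, 0.831 and 1.00 on average with 0, 1 and 2 copies, and at the adjoining SNPs it was lowest with 2 copies.

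Away from these 4 SNPs the imbalances were small. T112161574A had 307 reference and 219 alternate reads, a share of 0.584 (P = 1.20e-04, Benjamini-Hochberg adjusted P = 5.56e-04, and 0.0189 in the moderated quasi-binomial F test). The reference allele was higher in each of its 5 heterozygous animals, with 53 and 36 reads in RS910, 58 and 35 in RS905, 64 and 45 in RS930, 54 and 49 in RS940, and 78 and 54 in RS969. C112161181T had a share of 0.572 (P = 0.00235, Benjamini-Hochberg adjusted P = 0.00813, and 0.0484 in the moderated quasi-binomial F test). Its reference allele was also higher in every heterozygous animal, with shares between 0.529 and 0.641. T112163132G, T112161574A and C112161181T were the 3 SNPs that passed with animals as replicates. Animals called homozygous at C112161181T carried 9 reads of the other allele among 822.

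Of the other named 3′ UTR SNPs, A112161605C had a share of 0.562, A112161811G of 0.554, A112161601C of 0.552 and C112161993T of 0.556, with P between 0.00495 and 0.0212. A112161605C, A112161811G and C112161993T shared the 5 heterozygous animals of T112161574A, and A112161601C lay only 4 bp from A112161605C. The remaining SNPs with the reference allele higher, C112161655A, C112162964A, T112163202C and A112164430C, had shares between 0.541 and 0.575. The alternate allele was higher at P below 0.05 only at A112161050T, with 277 reference and 333 alternate reads and a share of 0.454 (P = 0.0233, Benjamini-Hochberg adjusted P = 0.0594, and 0.218 in the moderated quasi-binomial F test). There 4 of 6 animals had more alternate reads, and the shares ran from 0.374 to 0.543.

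The single protein-changing SNP, the missense variant T112164778C, showed no detectable AI. It had 175 reference and 177 alternate reads, a share of 0.497 (P = 0.915). The reads were 22 and 25 in RS902, 26 and 26 in RS917, 40 and 36 in RS920, 26 and 32 in RS930, 27 and 19 in RS933, and 34 and 39 in RS953. The shares ran from 0.448 to 0.587, with 2 animals above 0.5 and 3 below. Among the 5 synonymous SNPs, G112240195A, the farthest from the 3′ UTR, was the 1 coding SNP with AI, with 246 and 175 reads in 12 heterozygous animals and a share of 0.584 (P = 5.23e-04, Benjamini-Hochberg adjusted P = 0.00212, and 0.0808 in the moderated quasi-binomial F test). Its shares were uneven, from 0.323 in RS969 (10 and 21 reads) to 0.813 in RS919 (26 and 6), and 9 of 12 were above 0.5. Without RS929 the share was 0.591 (P = 3.41e-04). The other 4 synonymous SNPs had shares between 0.473 and 0.524. Over animals, the missense share minus the synonymous share was -0.00277 ± 0.0423 (SD, n = 6; exact two-sided sign-flip test, p = 0.906), where 6 animals cannot give a p below 0.0313.

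Within the 6 animals with 1 copy of the RS937 haplotype, the reads of both haplotypes were on average nearly equal over the 24 SNPs, without a test. Where the RS937 haplotype carries the reference allele (17 SNPs), the reference share was 0.519 ± 0.0309 (SD, n = 6). Where it carries the alternate allele (7 SNPs), the reference share was 0.525 ± 0.0239 (SD, n = 6). On average the reference allele held slightly more than 0.5 of the reads in both sets, being higher at 14 of the 17 SNPs and at 5 of the 7. Single animals were split. At the 17 SNPs RS920 (0.482), RS933 (0.498) and RS953 (0.498) were below 0.5, at the 7 SNPs RS930 (0.494), and the other animals were above. With both sets weighted equally, the RS937 haplotype held 0.497 ± 0.0197 of the reads (SD, n = 6), from 0.473 in RS953 to 0.525 in RS930. The 24 SNPs had the same 6 animals and overlapping reads, so these counts of SNPs carry no test.

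**Figure D4:**
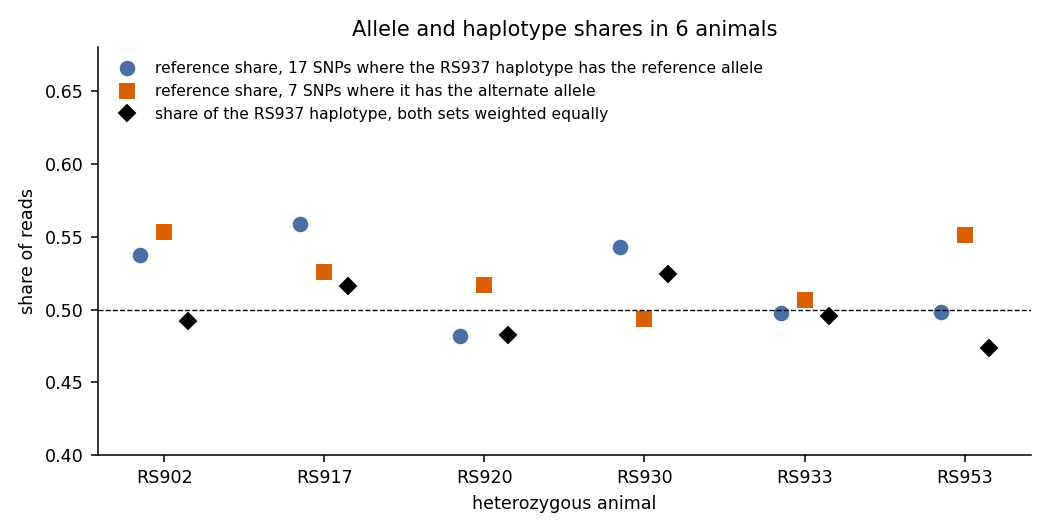
Shares of reads in the 6 animals heterozygous at the 24 SNPs of the largest pattern. Circles give the reference share where the RS937 haplotype has the reference allele, squares where it has the alternate allele, and diamonds the share of the RS937 haplotype, which ran from 0.473 to 0.525.

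With 1 value per animal, taken over all its heterozygous OSBPL8 SNPs, the reference share was 0.537 ± 0.0646 (SD, n = 18), above 0.5 in 13 animals and below it in 5 (exact two-sided sign-flip test against 0.5, p = 0.0156, adjusted p = 0.0313 over the 6 tests of this kind). The lowest was 0.452 in RS937, the median 0.522 and the highest 0.695 in RS919. RS919 and RS929 (0.682), the highest animals, had 5 and 6 heterozygous SNPs, among them the adjoining bases. Each animal counted alike, whatever its number of heterozygous SNPs. The sign-flip tests treat the fetuses as independent, although they had a common sire and shared OSBPL8 haplotypes. Without RS929 the mean share was above 0.5 by 0.0283 (exact two-sided sign-flip test, p = 0.0313). Without T112163132G the mean was 0.532 ± 0.0667 (SD, n = 18; exact sign-flip test, p = 0.0514). Without that SNP and the 3 adjoining ones it was 0.523 ± 0.0362 (SD, n = 18; exact sign-flip test, p = 0.0136), a setting chosen after the data were seen, with a highest share of 0.598. Over all other genes together the same animals had a reference share of 0.539 ± 0.00220 (SD, n = 18), and the OSBPL8 share differed from that of the same animal by -0.00178 on average (exact sign-flip test, p = 0.910).

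The 3′ UTR and coding SNPs did not differ detectably in reference share. The 3′ UTR minus coding difference was -0.0235 ± 0.101 (SD, n = 18; exact two-sided sign-flip test, p = 0.344, adjusted p = 0.461), above 0 in 9 animals and below it in 9. Against the other genes richest in SNPs, the reference share of OSBPL8 was lower than that of HSPG2, which encodes the basement membrane proteoglycan perlecan, by a mean of 0.118 and in 17 of 18 animals (OSBPL8 minus HSPG2 -0.118 ± 0.0884, SD, n = 18; exact sign-flip test, p = 4.58e-05, adjusted p = 1.37e-04). HSPG2 itself had a share of 0.655 ± 0.0722. These shares weight SNPs by their reads, and the best SNP of HSPG2, heterozygous in 17 animals, was at 0.897. Over SNPs the median share was 0.533 in HSPG2 and 0.517 in OSBPL8. As a mean of SNP shares per animal, the difference was -0.0971 (exact sign-flip test, p = 5.42e-04). The difference from ALDH5A1, an enzyme of GABA breakdown, was -0.0186 ± 0.0832 (SD, n = 16; exact sign-flip test, p = 0.384, adjusted p = 0.461), with 8 animals above 0 and 8 below.

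The study also ranked genes after down-sampling the reads to a common depth of 50. With 50 reads drawn from each heterozygous animal, OSBPL8 was by its best SNP, T112163132G, at rank 340 of 5795 genes. With 50 reads drawn at each SNP from the sum of its heterozygous animals it was at rank 457, or 428 in another draw, and by the smallest P on all reads at rank 507. T112163132G gave each of these ranks. Without it the rank by 50 reads per animal was 1487, with G112164154C as the best SNP, and by its second smallest P the gene would have been at rank 2021.

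Read depth changed along the transcript. Position rises from the 3′ UTR to the coding exons in OSBPL8, so the lowest positions are the end of the transcript farthest from the coding sequence. The 25 SNPs from 112160990 to 112162523 had a mean of 97.4 ± 11.3 reads per SNP (SD, n = 18 animals), and the 25 from 112162964 to 112164732 had 50.4 ± 8.83. The 2 coding SNPs next to the 3′ UTR had 58.4 ± 11.4, and the 4 coding SNPs farther on had 43.2 ± 10.5. The first stretch was deeper than the second in 18 of 18 animals, by 0.96 ± 0.20 on the log2 scale (1.95-fold), a division at the largest gap between SNPs that is given without a test. Over the whole 3′ UTR against the coding SNPs, the log2 ratio of mean reads per SNP was 0.63 ± 0.24 (SD, n = 18), above 0 in all 18 animals, ranging from 0.14 to 1.09 (exact two-sided sign-flip test, p = 7.63e-06, the smallest that 18 animals can give, adjusted p = 4.58e-05). T112163132G and the 3 adjoining SNPs lie in the shallower stretch.

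**Figure D5:**
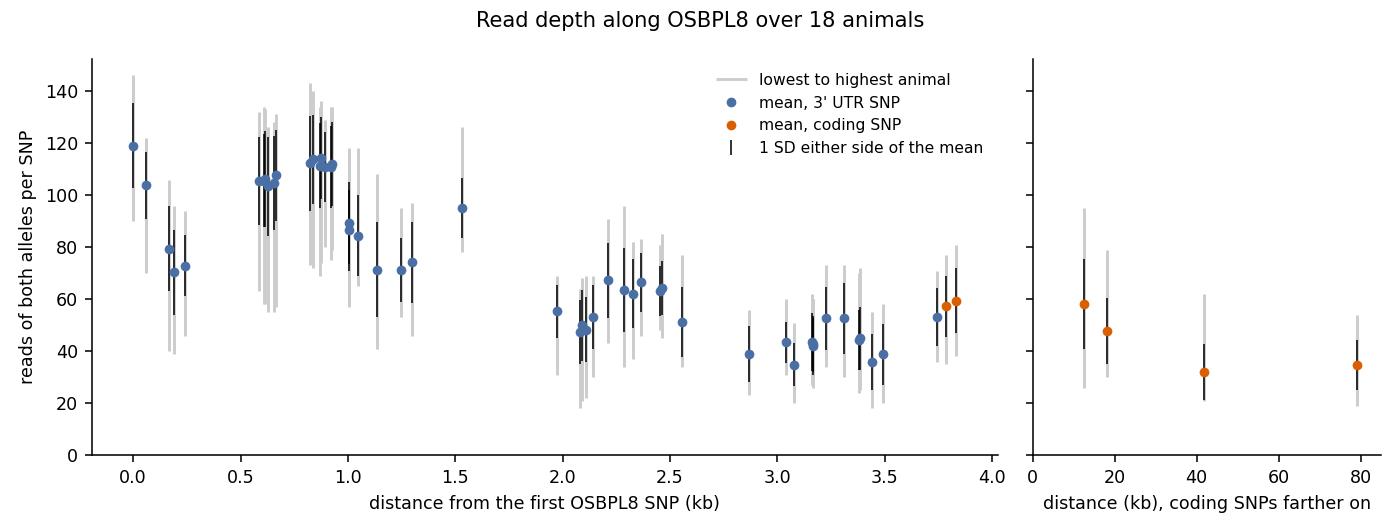
Reads of both alleles per SNP against the distance from the first OSBPL8 SNP in kb, for SNPs within the first 5 kb (left) and the coding SNPs farther on (right). Points are means over 18 animals, black lines 1 SD either side and grey lines the lowest and highest animal. The first 25 SNPs average 97.4 reads and the other 25 SNPs of the 3′ UTR 50.4.

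The level of OSBPL8 was expressed as reads per SNP for every 1000000 reads at SNPs, a depth per base that does not grow with the length of a gene. It was 14.1 in the lowest animal (RS905), 16.5 at the median and 18.6 in the highest (RS929), a mean of 16.7 ± 1.23 (SD, n = 18). In tissue RNA, fewer cells expressing a gene and less RNA per cell cannot be told apart. The coefficient of variation was 7.37%, against a median of 15.5% over genes, most of which were averaged over fewer SNPs. The mean level was higher than that of 55.0% of genes, for which the median was 14.7. The coding SNPs alone gave a mean and a median of 11.3, below that 14.7, with a range from 8.21 to 15.4 (1.87-fold). Their coefficient of variation was 16.9%, above the 15.5% over genes. The genes whose level was most alike over the 18 animals were KHDRBS1 (Spearman's rho 0.907, Pearson's r 0.911), SMCHD1 (0.843 and 0.812), TTC14 (0.843 and 0.828), GOLGB1 (0.812 and 0.818) and CD47 (0.804 and 0.854). They are the 5 highest of 5809 genes compared, whose median rho was 0.133, all values come from the same 18 libraries, and no p was computed. Without RS905 and RS929, the animals farthest from the median level, Pearson's r of these 5 ranged from 0.727 to 0.882.

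Other genes of lipid exchange gave a context for these counts. A gene is said to have AI here if at least 1 of its SNPs was past P = 0.05, which was so for 66% of genes tested, and 45% of all SNPs were past it, 33.8% with the reference allele higher. Of the 11 other members of the oxysterol-binding protein family, 3 were in the table and 2 had AI, in 4 of 12 SNPs. OSBP, the founding member, which exchanges sterol for PI4P at the Golgi, had AI at 3 of 9 SNPs and a median share of 0.521. Its best SNP, called heterozygous in all 18 animals, had a reference share of 0.720, and that of OSBPL3 had 0.384. Of 30 genes of membrane contact sites and of PI4P and phosphatidylserine metabolism, 20 were in the table and 16 had AI, in 66 of 116 SNPs, 54 of them with the reference allele higher. PI4KA, which makes PI4P at the plasma membrane, had AI at 14 of 15 SNPs, SACM1L, the phosphatase that removes PI4P in the endoplasmic reticulum, at 5 of 10, and PTDSS1, which synthesizes phosphatidylserine, at 2 of 4. Of 17 genes in a sterol-response list, which also held the nuclear pore gene NUP62, 15 were in the table and 12 had AI, in 32 of 85 SNPs. NUP62 gave 4 of the 32. Over these 3 lists the median of the genes' median shares was 0.465, 0.533 and 0.510. These are medians over genes, a measure unlike the 0.519 over all SNPs. The 0.465 is the share at the only SNP of OSBPL2, which did not show AI (likelihood ratio test, P = 0.105).

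Within 2 Mb of the OSBPL8 SNPs, 7 genes had SNPs in the table and 5 had AI, in 26 of 37 SNPs. Over the table, 66% of all genes tested and 45% of all SNPs tested had AI. PHLDA1 had AI at 11 of 12 SNPs, with a share of 0.857 at its best SNP, KRR1 at 10 of 14 (0.723), CSRP2 at 2 of 2 (0.698), BBS10 at 2 of 3 (0.620) and GLIPR1 at its only SNP (0.386). These best SNPs were called heterozygous in 17 animals in PHLDA1, 5 in CSRP2 and 6 in each of KRR1, BBS10 and GLIPR1. OSBPL8 lay among them with AI at 15 of 56 SNPs.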

How the data were processed

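Total RNA of PRAT was sequenced as paired end reads, 1 library for each of 18 fetuses. The authors aligned the reads to Oar v3.1 with STAR, keeping unique alignments with at most 10 mismatches, called genotypes from the same reads with GATK UnifiedGenotyper (3.4-46 in the submitters' processing notes), and deposited read counts of the reference and alternate allele per SNP and animal, without normalization. The table also holds the authors' test statistic, p-value, higher allele and pooled share, none of which was used. Alignment to 1 reference can favour reads that match it, and a genotype called from RNA depends on the counts tested.

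Reads of animals called heterozygous were summed and tested as in the study, by a Poisson likelihood ratio (1 degree of freedom, unadjusted P below 0.05) at all 24244 SNPs with a result, beside Benjamini-Hochberg adjusted values. The dispersion between animals was moderated with limma 3.58.1 (R 4.3.3) for a quasi-binomial F test. Single values per animal were compared with exact two-sided sign-flip permutation tests, 6 in all, with scipy 1.17.1 and numpy 2.4.6. P-values of summed reads cover counting error only. The tests were tested on simulated data. None of the 153 pairs of libraries looked like 1 library deposited more than once. The SNPs named were every missense SNP, the 10 with the smallest P, those heterozygous in 15 or more animals, those past the adjusted F test and those with the alternate allele higher. The gene, these lists and the tests were chosen with earlier results of these data known. Sequencing lanes per animal are not given in the sources used here.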

Additional observations from a re-analysis of the deposited data

Results flagged for a closer look

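Of 45 OSBPL8 SNPs with 4 to 10 heterozygous animals, 1 had an animal far from the others by Dixon's test, which chance alone would do at about 1 in 20 SNPs. RS933 had a reference share of 0.3077 at T112164371C, with 8 reference and 18 alternate reads, while the other 8 animals lay between 0.488 and 0.648.

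At 6 SNPs, animals called homozygous carried more than 3 reads in all of the allele that their genotype lacks, reads that the tests of AI leave out. These made up 6.081% of reads at A112164153G, 5.698% at G112164154C and 6.14% at C112164155A, the 3 adjoining bases, and their part in the AI there was not tested. They made up 1.095% at C112161181T, 0.7435% at T112163202C and 0.4766% at A112161050T. At 16 SNPs there were 1 to 3 such reads and at 34 none.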

How the results depend on the processing

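The 15 SNPs with AI became 9 after Benjamini-Hochberg adjustment, 3 in the adjusted and 7 in the unadjusted quasi-binomial F test, 8 and 6 with at least 20 and 30 reads of each allele in 5 animals (37 and 20 SNPs left), and 5 of 23 with 1 SNP per 100 bp, where fewer SNPs were tested. Of these SNPs the reference allele was higher at 93.3%, at 100% in both F tests and at 50% with the null at 0.519. Leaving out 1 animal at a time gave 11 (without RS917 or RS920) to 16 SNPs, with the reference allele higher at 85.7% to 100% of them, and 16 without RS929. Without the 4 SNPs that followed the haplotype, an alternative chosen after seeing the data, 12 were left.

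The mean reference share per animal minus 0.5 was 0.0368, and 0.0275 to 0.0418 without 1 animal (exact sign-flip p from 0.00366 to 0.0313). It was 0.0318 (exact sign-flip p = 0.0514) without T112163132G and reversed to -0.00178 (exact sign-flip p = 0.910) against the share over all other genes. The missense minus synonymous difference, -0.00277, reversed to 0.00329 as a mean of SNP shares and ran from -0.0177 to 0.00590 without 1 animal. The 3′ UTR minus coding difference ran from -0.0360 to -0.0109, OSBPL8 minus HSPG2 from -0.129 to -0.105, OSBPL8 minus ALDH5A1 from -0.0294 to -0.0107 and the depth ratio from 0.60 to 0.66 on the log2 scale, each on the same side of its threshold. The median level, 16.5, was 11.3 at coding SNPs, and the down-sampled rank, 340, was 1160 without SNPs heterozygous in 15 or more animals and 1487 without T112163132G. With 50 reads drawn per SNP in place of per animal, chosen after seeing the data, it was 457 and 428. In the 6 animals with 1 copy of the RS937 haplotype alone, the summed share at G112164154C reversed from 0.587 to 0.418 and at C112164155A from 0.577 to 0.404. The cause of these changes was not tested. With 1 group there were no replicate numbers to pair between groups. Depth was 18 to 146 reads per heterozygous call.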
